A study of Mus musculus with 6 samples.

Results

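Cilia are built and maintained by intraflagellar transport, the movement of protein trains along the microtubules of the cilium. Kinesin-2 motors carry the trains and their cargo, such as tubulin, from the base to the tip, and dynein-2 carries them back. The trains are made of the complexes IFT-B and IFT-A, and the BBSome, a coat-like complex, rides on them and moves membrane proteins in and out of the cilium. In the lung, multiciliated cells of the airway epithelium carry many motile cilia each, which move mucus.

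The genes of this machinery were compared between tdTomato-positive and tdTomato-negative epithelial cells sorted from the lungs of Miwi2tdTomato mice. They were taken by symbol: every gene named Ift or Bbs followed by a digit, and a named set of further train subunits, motor subunits and Arl6. This gave 37 of the 48577 genes in the files. The choice went by symbol alone, with earlier results of these data known. The 37 comprise 7 core and 5 peripheral IFT-B subunits, 6 IFT-A subunits, 4 dynein-2 subunits, 4 kinesin-2 subunits, 7 BBSome subunits, and 3 genes for BBSome assembly and recruitment (Bbs10, Bbs12 and Arl6). The last of the 37 is Ift88os, a non-coding transcript from the strand opposite Ift88, which matches the symbol rule without encoding a transport protein.

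Both groups carried the tdTomato reporter of Piwil4, the gene of the Piwi protein MIWI2, on the C57BL/6 strain. One group was sorted as CD45-negative, EpCAM-positive and tdTomato-positive, and the other as CD45-negative, EpCAM-positive and tdTomato-negative. Each of 3 mice gave 1 library of each group, which made 3 tdTomato-positive and 3 tdTomato-negative libraries of amplified total RNA. Age and sex are not given in the labels used here, and no gate for cilia is given, although both groups are labelled multiciliated cells.

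Counts in genes ranged from 5330584 to 6326395 per library, and 3 counts in a library corresponded to 0.475 to 0.585 CPM (read counts scaled to a common library total), a level that covers counting error only. Piwil4, the reporter's gene, was at 101, 95.7 and 111 CPM in the positive samples of mouse 1, mouse 2 and mouse 3, against 44.0, 29.97 and 45.6 CPM in the negative libraries. The tdTomato row held 37, 16 and 18 reads in the positive libraries and 0 in each negative library. On the first principal component (37.6% of the variance) the positive library of mouse 1 lay at 79.4, apart from the others at -35.2 to 7.80. Both groups held ciliated cell RNA, since 9 markers of multiciliated cells summed to 6921 ± 563 CPM in positive and 6644 ± 296 CPM in negative libraries (SD, n = 3 each). They also held RNA of other epithelial cells. The 12 alveolar type 2 cell markers, which include surfactant genes, summed to 594 to 1162 CPM in positive libraries and 6744 to 8118 CPM in negative libraries. The 10 club cell markers, genes of secretory airway cells, summed to 6522 to 19998 CPM in positive libraries and 3378 to 6467 CPM in negative libraries. None of the markers in these 2 lists was at 0 in every library of the positive group. In sorted bulk RNA, fewer cells of a type and less RNA per cell cannot be told apart, and the part of these other cell types in the values of the transport genes was not tested.

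Promoter sequence is a feature of these genes that the choice by symbol did not use. The X-box, a motif of a pair of inverted half-sites that RFX transcription factors bind, is known from the promoters of ciliary genes. RefSeq promoters (GRCm38.p6, 250 bases before to 50 after a transcript start) were found for 32 of the 37 genes. A gene was counted if any promoter listed for it held the motif. The start used could lie inside the annotated gene, as for the matches in Kif17 and Dync2h1 below. An X-box written as GTNNCC and GGNAAC with 0 to 3 bases between them, on either strand, lay in a promoter of 5 of the 32 genes (15.6%). It lay in a promoter of 2.68% of all 27025 genes with a promoter. Of the genes with a promoter, 9129 passed the filter on low counts described with the test, and it lay in a promoter of 4.04% of these. With the first half-site narrowed to GTTNCC it lay in 2 of 32 (6.25%), in 0.936% of all and in 1.24% of the genes that passed. The half-site GTTGCC, which can overlap the X-box, lay in 13 of 32 (40.6%), Kif17 and Dync2h1 among them, in 14.1% of all and in 16.0% of the genes that passed. The forkhead motif TGTTTAC lay in 0 of 32, in 4.05% of all and in 3.17% of the genes that passed. These 4 motifs were chosen with the data known, and a match is a description of letters and not a binding site. The 5 promoters with the X-box are shown around the match because they let the motif be read in both BBSome and IFT-B genes. Capitals mark the matches, and each line reads 5′ to 3′ on the strand of its gene: Bbs1 at chr19:4906605-4906634, Bbs4 at chr9:59353464-59353493 and Bbs7 at chr3:36613467-36613540, each on the minus strand, and Ift22 at chr5:136908057-136908160 and Ift57 at chr16:49699177-49699276, both on the plus strand.
Bbs1: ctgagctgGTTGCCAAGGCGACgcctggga
Bbs4: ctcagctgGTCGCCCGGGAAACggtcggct
Bbs7: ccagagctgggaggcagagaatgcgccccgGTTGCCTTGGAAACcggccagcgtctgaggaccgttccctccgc
Ift22: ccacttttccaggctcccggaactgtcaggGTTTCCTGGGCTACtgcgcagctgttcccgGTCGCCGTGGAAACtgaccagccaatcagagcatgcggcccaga
Ift57: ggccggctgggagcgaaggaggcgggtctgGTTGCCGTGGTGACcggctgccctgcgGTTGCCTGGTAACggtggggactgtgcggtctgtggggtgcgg
Bbs1, Bbs4 and Bbs7 each held 1 match, and Ift22 and Ift57 each held 2 matches within 1 window. The match in Bbs1 and the first marked match in Ift22 and in Ift57 fit the motif only when read on the opposite strand. The matches in Bbs1 and Bbs4 lay after the start.

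All 37 genes were detected in every library and passed the filter on low counts, as did 13175 genes in all. No member of the 37 passed the test of a difference between tdTomato-positive and tdTomato-negative cells. The quasi-likelihood test of edgeR called 0 of 37 at an adjusted p under 0.05, where it called 0.622% of all genes, and 0 of 37 had an unadjusted p under 0.05, against 10.7% of all genes. With the mouse as a replicate block, edgeR called 0 of 37, against 3.15% of all genes, and 4 members had an unadjusted p under 0.05, against 15.9% of all genes. Those 4 were Wdr34, Traf3ip1, Ift140 and Ift46, each with its higher mean in positive libraries, a direction in which 8.2% of all genes had such a p. DESeq2 called 0 of 37, against 1.86% of all genes, with 0 at an unadjusted p under 0.05, against 10.5% of all. Limma-voom also called 0, against 0.653%, with 0 unadjusted, against 10.7%. With the mouse as block, DESeq2 called 0, against 3.52%, with 2 unadjusted, against 13.1%, and limma-voom called 0, against 4.13%, with 4 unadjusted, against 17%. A p that misses the threshold does not show that the groups were alike, and the intervals of the fold changes bound the differences. Without the positive library of mouse 1, edgeR called 0, against 0.822% of all genes, and 5 had an unadjusted p under 0.05, against 11.8% of all. Scaled by library size alone, it called 0, against 0.577%, and 8 had an unadjusted p under 0.05, against 17.7% of all.

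**Figure D1:**
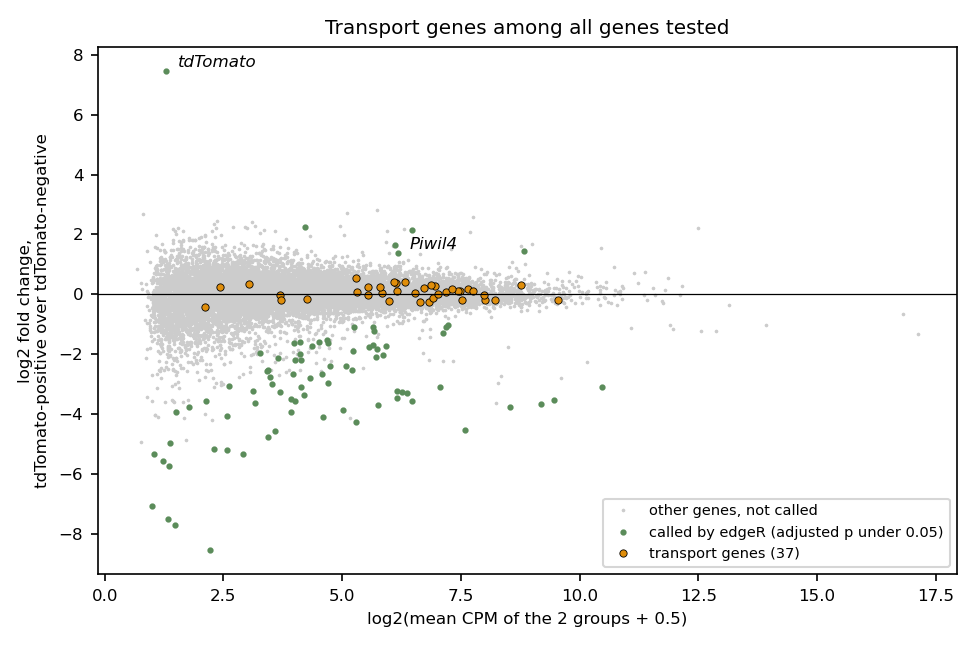
Each point is 1 gene, with the mean level of the 2 groups in CPM on the x axis (log2, 0.5 added) and the log2 fold change of tdTomato-positive over tdTomato-negative cells on the y axis. The 37 transport genes lie between -0.43 and 0.55, while the 82 called genes, Piwil4 and tdTomato among them, reach far beyond that range.

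Among the 37 genes, the log2 fold change of positive over negative cells ranged from -0.43 for Bbs10 to 0.55 for Wdr34, with a median of 0.07, beside 0.03 over all genes tested. It was above 0 for 23 of 37, while 52.7% of all genes were above 0. Scaled by library size alone, the median was 0.34 with 35 of 37 above 0, and that of all genes was 0.29. The transport genes thus stood 0.04 log2 units above the median of all genes with TMM factors, which correct library totals for composition, and 0.05 above it without them. Values below 0 for single genes, here and in what follows, are those with TMM factors, and with library size alone only 2 of the 37 were below 0 (Ttc8 and Bbs10). The intervals bound how large a difference these libraries leave room for. The 95% interval of the fold change lay within 2-fold in both directions for 32 of 37 genes, and for 5593 of the 13175 genes tested. With the mouse as block it did so for 32 of 37 genes and for 6330 of all genes tested. The exceptions were Wdr34, Kif17, Bbs12, Bbs10 and Ift88os. The median half-width of the interval was 0.44 log2 units for the transport genes and 0.77 over all genes.

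**Figure D2:**
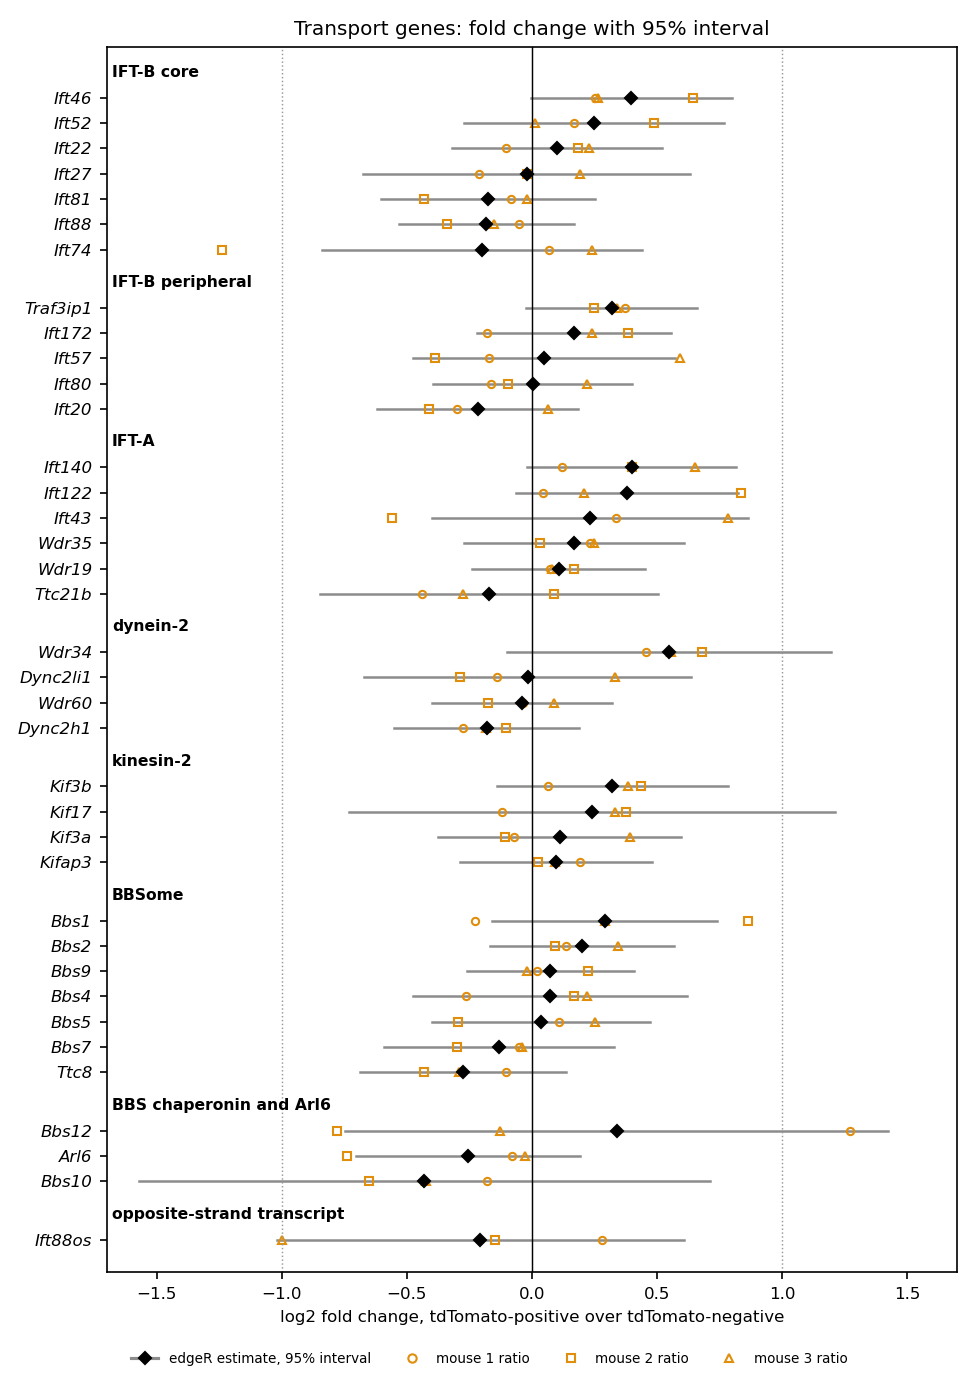
Diamonds are the edgeR log2 fold changes of tdTomato-positive over tdTomato-negative cells, grey lines their 95% intervals and open symbols the log2 ratios within each of the 3 mice (circle, square and triangle for mice 1, 2 and 3), grouped by role. Dotted lines mark 2-fold. The fit shown left the mouse out, every interval crosses 0, and the interval of Bbs10, from -1.57 to 0.71, is the widest. With the mouse as block, which is not drawn, the intervals of Wdr34, Traf3ip1, Ift140 and Ift46 lay above 0.

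The level of each gene per length was given as CPM per kilobase of exon (CPM per kb). The exons of all annotated transcripts of a gene were merged for its length, so the order depends on the annotation. Traf3ip1, a peripheral IFT-B subunit that links the train to microtubules and tubulin, had the highest level, at 130.2 ± 11.4 CPM per kb in positive and 104 ± 9.96 CPM per kb in negative libraries (SD, n = 3 each). Ift74, Ift88, Arl6, Kif3a and Dync2h1 came next in the mean of the 6 libraries. The lowest were Kif17, at 1.15 ± 0.287 CPM per kb in positive and 0.973 ± 0.119 CPM per kb in negative libraries, Bbs10, Ttc21b, Bbs12 and Ift27. The highest and the lowest level differed 111-fold. Along the order, the ranges over 6 libraries overlapped between neighbours in 35 of 36 pairs, and only Traf3ip1 and Ift74 did not overlap. The order was nearly the same in the 2 groups: across the 37 genes, the levels in positive and negative libraries had a Spearman correlation of 0.987, a description that shares gene length on both sides, and no gene moved by more than 4 ranks.

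**Figure D3:**
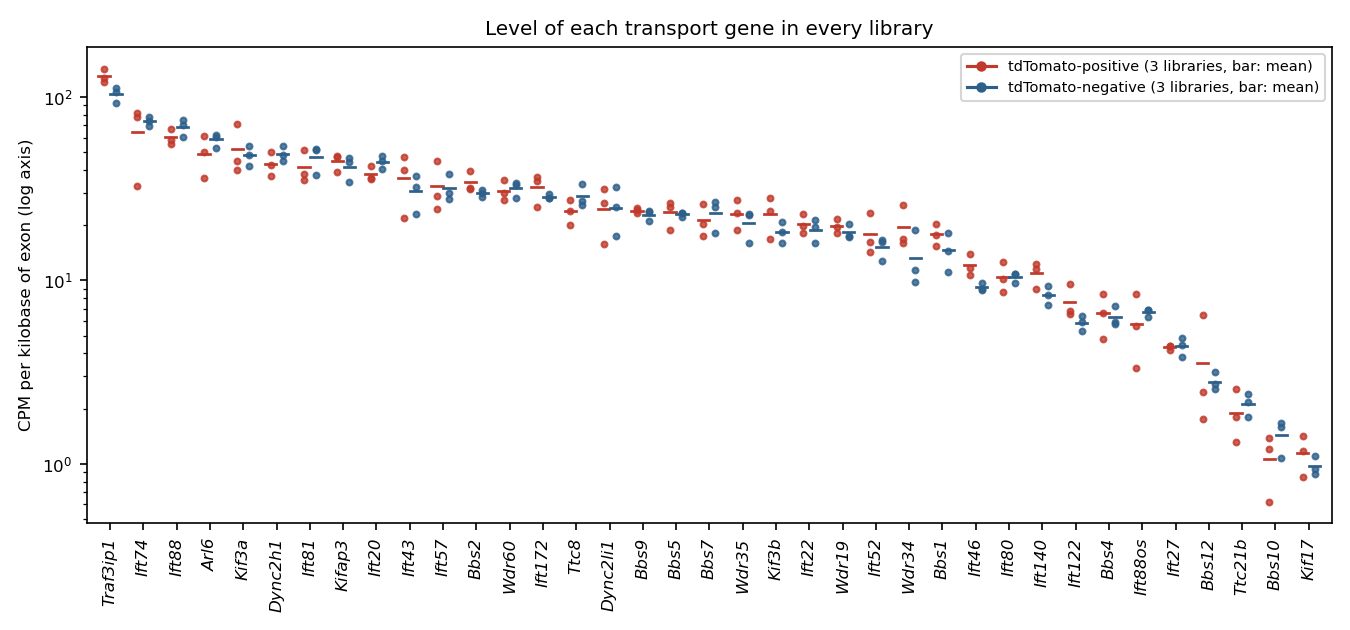
Level of each transport gene in CPM per kb of exon on a log axis, with red for the 3 tdTomato-positive and blue for the 3 tdTomato-negative libraries and bars at the group means, ordered by the mean of all 6. Traf3ip1 stands at the top and Kif17 and Bbs10 at the bottom, and for most genes red and blue points intermingle.

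The core of IFT-B holds the train together. Its 7 genes had a median log2 fold change of -0.02, with 0 called. Ift88, whose loss stops cilium assembly in mice, had the most reads of the core, with 269, 256 and 310.5 CPM in positive libraries (mice 1, 2 and 3, in this order throughout), against 279, 325 and 345 CPM in the negative ones. It was lower in positive cells in each mouse, with overlapping groups, and its log2 fold change was -0.18 ± 0.16 (SE; in edgeR, adjusted p = 0.718). Ift46, a core subunit that carries outer dynein arms as cargo in Chlamydomonas, had 68.6, 88.9 and 75.0 CPM in positive libraries, against 57.4, 56.7 and 62.4 CPM in negative ones. All 3 positive libraries lay above the negative ones, but its log2 fold change of 0.40 ± 0.18 did not pass the test. The 95% interval was -0.01 to 0.80, and 0.01 to 0.77 with the mouse as block. In edgeR, the adjusted p was 0.475, the smallest of the 37, and 0.299 with the mouse as block.

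Ift74 and Ift81 form a pair that binds tubulin. Ift74 had 206, 86.9 and 218 CPM in positive libraries, against 196, 206 and 184 CPM in negative ones. The positive library of mouse 2 lay 1.24 log2 units below the median of the other libraries, while the rest lay close together. Its log2 fold change was -0.20 ± 0.29 (in edgeR, adjusted p = 0.842) with that library and 0.12 without it, so its direction rested on 1 library. Ift81 gave 223 CPM in the same positive library of mouse 2, within its range of 207 to 298 CPM in positive libraries, against 219 to 302 CPM in negative ones. The count of Ift74 was 0.996, 0.390 and 0.730 times that of Ift81 in the 3 positive libraries, against 0.896, 0.684 and 0.610 times in the negative libraries. Ift22 and Ift27, small GTPases of the core, and Ift52 had log2 fold changes of 0.10, -0.02 and 0.25.

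The peripheral IFT-B subunits include some that take part in the contact with kinesin-2. Their 5 genes had a median log2 fold change of 0.05, with 0 called. Traf3ip1 had 448, 472 and 529.9 CPM in positive libraries, against 346, 398 and 418 CPM in negative ones. The groups did not overlap, and the ratio within mice was 0.37, 0.25 and 0.34 log2 units. The log2 fold change of 0.32 ± 0.16 (95% interval -0.02 to 0.66) did not pass the test (in edgeR, adjusted p = 0.506, and 0.232 with the mouse as block). With the mouse as block the 95% interval was 0.04 to 0.60. Ift20, which also sorts proteins from the Golgi to the cilium, had 55.1, 54.4 and 64.3 CPM in positive libraries, against 67.9, 72.6 and 61.4 CPM in negative ones. Its groups overlapped, with a log2 fold change of -0.22 ± 0.18 (in edgeR, adjusted p = 0.706). Ift57, Ift80 and Ift172, the last known for the turn of the trains at the tip, had log2 fold changes of 0.05, 0.00 and 0.17. In the annotation, 7.86% of the exon length of Ift57 is shared with Gm15518 on the opposite strand. How reads in the shared bases were counted is not known.

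IFT-A serves the return journey and the entry of membrane receptors. Its 6 genes had a median log2 fold change of 0.20, the highest of the role groups, with 0 called. Wdr19 had the most reads, with 204, 221 and 243 CPM in positive libraries, against 194, 196 and 229.7 CPM in negative ones. The ratio was above 0 in each mouse but small, with overlapping groups and a log2 fold change of 0.11 (95% interval -0.24 to 0.45). Ift140 had 75.2, 102 and 96.1 CPM in positive libraries, against 69.1, 77.2 and 61.0 CPM in negative ones. It was higher in positive cells in each mouse and overlapped only where the positive library of mouse 1 fell below the negative library of mouse 2. Its log2 fold change was 0.40 ± 0.19 (in edgeR, adjusted p = 0.495, and 0.285 with the mouse as block). The 95% interval was -0.02 to 0.82, and 0.02 to 0.77 with the mouse as block. Ift122 had 68.1, 98.1 and 70.3 CPM in positive libraries, against 66.0, 54.7 and 60.8 CPM in negative ones. The groups did not overlap, but most of the gap lay in mouse 2, with 0.84 log2 units against 0.04 and 0.21 in mice 1 and 3.

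Ttc21b was the gene of IFT-A with the lowest log2 fold change, at -0.17 ± 0.31. It had 12.2, 23.7 and 16.7 CPM in positive libraries, against 16.7, 22.3 and 20.3 CPM in negative ones. Its paralog Ttc21a, outside the symbol rule and known from sperm flagella, was the more abundant of the pair in these cells. Per length, Ttc21a stood at 72.6 ± 5.75 CPM per kb in positive and 54.8 ± 9.42 CPM per kb in negative libraries, while Ttc21b stood at 1.89 ± 0.628 CPM per kb in positive and 2.13 ± 0.306 CPM per kb in negative libraries (SD, n = 3 each). Ttc21a had 388, 423 and 362 CPM in positive libraries, against 353, 262 and 270.1 CPM in negative ones. Its groups did not overlap, and its log2 fold change of 0.41 ± 0.17 did not pass the test (in edgeR, adjusted p = 0.428, and 0.144 with the mouse as block). Ift43 and Wdr35 had log2 fold changes of 0.23 and 0.17.

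Dynein-2 returns the trains to the base. Its 4 genes had a median log2 fold change of -0.03, with 0 called, and at 0.55 ± 0.29 one of them, Wdr34, held the highest value of all 37. Wdr34, an intermediate chain of the motor, had 60.8, 37.5 and 39.5 CPM in positive libraries, against 44.2, 23.2 and 26.7 CPM in negative ones. Both libraries of mouse 1 were high, so the groups overlapped, while within the mice the positive library was higher by 0.45, 0.68 and 0.56 log2 units. The adjusted p was 0.544 in edgeR without a term for the mouse. With the mouse as block the log2 fold change was 0.57 (95% interval 0.13 to 1.01), with an unadjusted p of 0.0141 and an adjusted p of 0.168. Dync2h1, the heavy chain that holds the motor domain, had the most reads of all 37 genes, with 603, 819.7 and 693 CPM in positive libraries, against 729.6, 882 and 787 CPM in negative ones. It was lower in positive cells in each mouse, with overlapping groups and a log2 fold change of -0.18 ± 0.17 (in edgeR, adjusted p = 0.737). Wdr60, the other intermediate chain, and Dync2li1, the light intermediate chain, had log2 fold changes of -0.04 and -0.02.

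Kinesin-2 drives the outward journey, as a trimer of the motors Kif3a and Kif3b with the accessory subunit Kifap3, or as the separate motor Kif17. The median log2 fold change of these 4 genes was 0.17, with 0 called. Kifap3 had 157, 189 and 190.4 CPM in positive libraries, against 138, 186 and 178 CPM in negative ones, and its groups overlapped (log2 fold change 0.10 ± 0.17). Kif3b had 94.4, 159 and 135 CPM in positive libraries, against 90.2, 117 and 103 CPM in negative ones. It was higher in positive cells in each mouse with overlapping groups, and its log2 fold change of 0.32 ± 0.21 did not pass the test (in edgeR, adjusted p = 0.617). Kif3a had 144, 160.3 and 254 CPM in positive libraries, against 151, 172 and 193 CPM in negative ones, with the positive library of mouse 3 highest of all 6. Kif17 was near the bottom of the levels in both groups, at 3.88 to 6.51 CPM in positive libraries and 4.03 to 5.07 CPM in negative ones. Kif3c, an alternative partner of Kif3a outside the symbol rule, was also low per length, at 0.723 ± 0.235 CPM per kb in positive and 0.645 ± 0.0598 CPM per kb in negative libraries. Kif3b stood at 22.9 ± 5.76 CPM per kb in positive and 18.4 ± 2.39 CPM per kb in negative libraries (SD, n = 3 each). In the annotation, 40.7% of the exon length of Kif3c is shared with genes on the opposite strand, so its level per length may be affected.

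The 7 BBSome genes had a median log2 fold change of 0.07, with 0 called. Bbs9 had the most reads of them, with 151, 154 and 145 CPM in positive libraries, against 149, 132 and 147 CPM in negative ones. Its levels overlapped, and its 95% interval of -0.26 to 0.41 log2 units was among the narrower ones. Bbs1, which binds Arl6 on the membrane, had 119, 156 and 135 CPM in positive libraries, against 139, 85.7 and 110.4 CPM in negative ones. The mice differed in direction, at -0.23, 0.87 and 0.29 log2 units, and the log2 fold change was 0.29 ± 0.20 (in edgeR, adjusted p = 0.640). Ttc8 had 90.9, 75.8 and 104 CPM in positive libraries, against 97.6, 102 and 127 CPM in negative ones. It was lower in positive cells in each mouse, with overlapping groups and a log2 fold change of -0.27 ± 0.19 (in edgeR, adjusted p = 0.630). Bbs2 had 104, 105 and 130.4 CPM in positive libraries, against 94.7, 98.7 and 103 CPM in negative ones. Its groups did not overlap, by a margin that was small beside the spread of the positive libraries, and the log2 fold change was 0.20 (in edgeR, adjusted p = 0.705). Bbs4, Bbs5 and Bbs7 had log2 fold changes of 0.07, 0.04 and -0.13.

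Bbs10 and Bbs12 encode chaperonin-like proteins that help assemble the BBSome, and Arl6 is the small GTPase that recruits it to membranes. Bbs10 rested on 25, 12 and 23 counts in positive libraries, against 25, 17 and 26 counts in negative ones. At this depth the estimate was imprecise, with a log2 fold change of -0.43 and a 95% interval of -1.57 to 0.71. Bbs12 had 15.7, 4.27 and 6.03 CPM in positive libraries, against 6.21, 7.68 and 6.63 CPM in negative ones. The positive library of mouse 1 lay apart from the other 5, and the log2 fold change was 0.34 ± 0.49 with it and -0.40 without it. Arl6 had 105, 76.3 and 128 CPM in positive libraries, against 111, 128 and 130.4 CPM in negative ones. It was lower in positive cells in each mouse, mostly in mouse 2, with a log2 fold change of -0.26 ± 0.20 (in edgeR, adjusted p = 0.686) that was -0.08 without the positive library of mouse 2.

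Ift88os had 17.1, 11.4 and 6.67 CPM in positive libraries, against 14.0, 12.7 and 13.8 CPM in negative ones. The positive libraries lay on both sides of the negative ones, and the log2 fold change was -0.21 ± 0.37. Ift88 and Ift88os share 1.45% of the exon length of Ift88 on opposite strands of chromosome 14, from 57424062 to 57517936 for Ift88 and from 57506744 to 57510835 for Ift88os (GRCm38). The way reads in these shared bases were counted is not known.

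The libraries of each mouse can be set against each other gene by gene. Of the 37 genes, 11 were higher in the positive library of all 3 mice, against 19.8% of all genes, and 7 were lower in all 3, against 18.8% of all genes. The groups did not overlap for 4 genes with higher values in positive libraries (Ift46, Traf3ip1, Ift122 and Bbs2), against 8.29% of all genes, and for 0 genes with lower values, against 9.02% of all genes. The median log2 ratio of the 37 genes was -0.05, -0.02 and 0.22 in mice 1, 2 and 3, with 26 of 37 ratios above 0 in mouse 3, against 17 and 18 in mice 1 and 2. Over all 13175 genes tested the medians were -0.01, 0.02 and 0.02, with 6513, 6765 and 6788 ratios above 0 in mice 1, 2 and 3. Mouse 1 had the lowest value of its group in both positive and negative libraries for 17 of 37 genes (45.9%), where this held for 17.2% of all genes. Mouse 2 was lowest in both for 3 of 37, against 12.8% of all genes, and mouse 3 for 0 of 37, against 13.2%. The positive library of mouse 1 was the lowest of all 6 for 12 of 37, against 25.2% of all genes, and that of mouse 3 the highest of all 6 for 14 of 37, against 15.4%.

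The median coefficient of variation over 3 libraries was 19.5% in positive and 12.2% in negative cells, and it was higher in positive cells for 27 of 37 genes (73.0%). Over all genes the medians were 29.3% in positive and 19.4% in negative cells, with 69.8% higher in positive cells. In 3 cases 1 library lay 1 log2 unit or more from the median of the others: Ift74 in the positive library of mouse 2, Bbs12 in that of mouse 1 and Ift88os in that of mouse 3.

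Summed over the 37 genes, transport transcripts made up 4399, 4869 and 5422 CPM in positive libraries, against 4426, 4988 and 4987 CPM in the negative libraries. The means were 4897 ± 512 CPM in positive and 4801 ± 324 CPM in negative cells (SD, n = 3 each), with overlapping groups. Against the summed level of 29 genes of motile cilia, which are 26 genes of the axoneme and its assembly and the transcription factors Foxj1, Rfx2 and Rfx3, the transport sum was 28.0% ± 1.79 in positive and 27.0% ± 1.39 in negative cells. Against the 26 genes without the factors, it was 30.4% ± 1.65 in positive and 28.6% ± 1.17 in negative cells (SD, n = 3 each). Over the same libraries, the alveolar type 2 markers fell in positive cells: edgeR called 7 of 12 lower, and 9 of 12 with the mouse as block. Of the 10 club cell markers, 0 were called, but 6 rose with the mouse as block. Over all genes, edgeR called 0.622% in either direction, and 3.15% with the mouse as block. The transport sums overlapped between the groups in the same libraries.

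**Figure D4:**
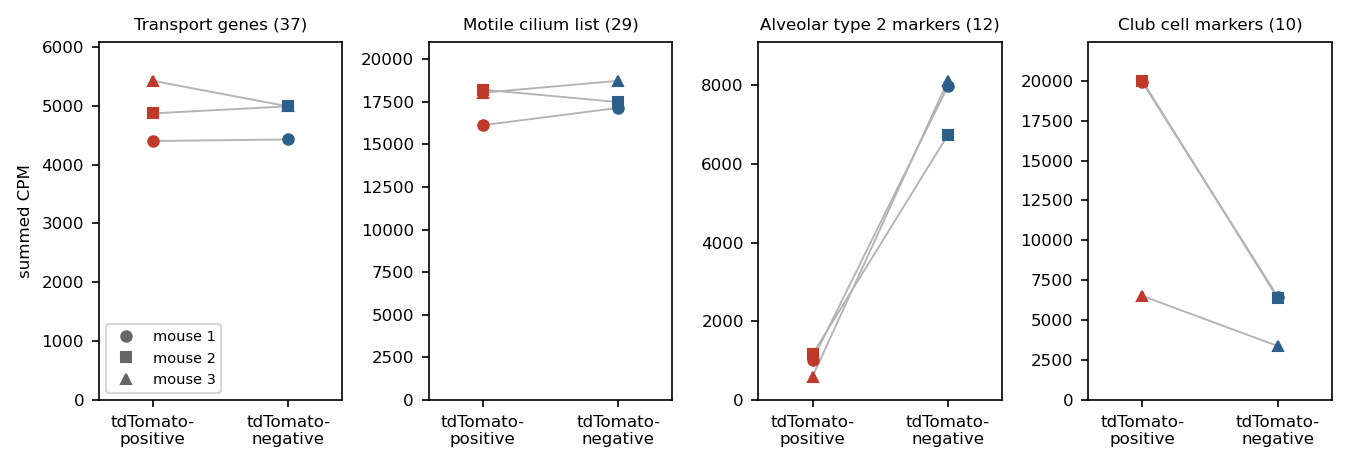
Summed CPM of the transport genes, the motile cilium list, the alveolar type 2 markers and the club cell markers, with tdTomato-positive libraries in red on the left, tdTomato-negative libraries in blue on the right and a line joining the libraries of 1 mouse. The transport sums, 4399 to 5422 CPM in positive and 4426 to 4988 CPM in negative libraries, overlap, whereas the alveolar type 2 sums lie apart.

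The wider pathway was read from lists of its other genes. Of 21 further subunits and isoforms, 19 passed the filter, and edgeR called 0 with or without the mouse as block. In each fit 3 had an unadjusted p under 0.05, against shares over all genes of 10.7% without and 15.9% with the block. Without the block these were Ttc21a, Dynll1 and Dynlrb2, all with higher values in positive cells. Dynll1 and Dynlrb2 are dynein light chains that other dyneins also use. Dynlrb2 had 128, 77.5 and 110.4 CPM in positive libraries, against 72.4, 87.2 and 59.3 CPM in negative ones. Mouse 2 ran against the other mice for Dynlrb2, and its log2 fold change was 0.53 ± 0.23 (in edgeR, adjusted p = 0.433). Of 24 regulators and adaptors, 22 passed the filter and 0 were called in either fit, while 4 higher and 0 lower had an unadjusted p under 0.05 without the block, and 6 higher and 1 lower with it. The smallest p belonged to Arl2bp, a binding partner of small GTPases, with 53.4, 37.5 and 29.9 CPM in positive libraries, against 23.9, 23.2 and 19.1 CPM in negative ones. Its groups did not overlap, and its log2 fold change was 0.87 ± 0.27 (in edgeR, adjusted p = 0.257, and 0.0637 with the mouse as block). Mok, a kinase related to those that regulate the trains at the tip, and Fbf1, a protein of the distal appendages where trains dock, had log2 fold changes of 0.48 and 0.55 (in edgeR, adjusted p = 0.387 and 0.428). The 1 lower with the block was Lztfl1, with 224, 182 and 192 CPM in positive libraries, against 263, 231 and 259 CPM in negative ones. All its positive libraries lay below the negative ones, with a log2 fold change of -0.33 ± 0.16 (in edgeR, adjusted p = 0.486, and 0.236 with the mouse as block).

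The transition zone is the gate at the ciliary base that the trains pass. The list held 26 genes of this zone and of entry at the basal body, not all of them parts of the gate itself. All 26 passed the filter, and 0 were called in either fit. Without the block 4 higher and 1 lower of them had an unadjusted p under 0.05, against 10.7% of all genes in either direction, and with the block 7 higher and 4 lower did, against 15.9% of all genes. The 4 with lower values in positive cells were Cep290, Rpgr, Ofd1 and Rpgrip1, with log2 fold changes of -0.46, -0.42, -0.62 and -0.88 with the block (in edgeR, adjusted p = 0.138, 0.236, 0.260 and 0.272). Cep290, which builds the links between the microtubules and the membrane in the gate, had 488, 419 and 694 CPM in positive libraries, against 626, 812 and 728 CPM in negative ones, with overlapping groups and lower values in positive cells in each mouse. Without the block the smallest p values belonged to Tctn2, Tmem231 and Tctn1, and with the block to Tctn2 and Cep290. Tctn2 had 91.9, 89.4 and 68.4 CPM in positive libraries, against 53.7, 50.5 and 55.4 CPM in negative ones, with no overlap and a log2 fold change of 0.65 ± 0.19 (in edgeR, adjusted p = 0.226, and 0.0767 with the mouse as block). Tmem231 and Tctn1 also showed no overlap, with log2 fold changes of 0.56 and 0.53 (in edgeR, adjusted p = 0.322 and 0.332). In this list 4 genes lay higher in positive cells without overlap, against 8.29% of all genes. Another 3 lay lower without overlap, against 9.02% of all genes: Mks1, Invs and Rpgrip1. Mks1 had 4.59, 4.81 and 3.93 CPM per kb in positive libraries, against 5.61, 5.94 and 5.16 CPM per kb in negative ones. Of the exon length of Tctn1, 25.5% is shared with genes on the opposite strand. The list as a whole had a median of 0.00.

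Of the 31 genes of motile cilia listed, the 3 transcription factors among them, 29 had values. Without the mouse, edgeR called 0 of them, against 0.622% of all genes. At an unadjusted p under 0.05, 6 were higher and 2 lower, against 10.7% of all genes in either direction. With the mouse as block, edgeR called 3 of 29, against 3.15% of all genes, and all 3 rose in positive cells. Foxj1, a transcription factor that regulates motile cilia, had a log2 fold change of 1.199 in this edgeR fit (adjusted p = 0.000129). Tppp3, a tubulin-binding protein, had 1.02 (adjusted p = 0.000729) and Cfap126 had 0.70 (adjusted p = 0.0301). Foxj1 had 869.8, 402 and 270.0 CPM in positive libraries, against 484, 138 and 116 CPM in negative ones, so both libraries of mouse 1 were high and the groups overlapped. In the same fit 0 of the 37 transport genes were called. A difference between Foxj1 and the transport genes was not tested.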

How the data were processed

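The labels describe 6 RNA-seq libraries, 3 tdTomato-positive and 3 tdTomato-negative, from mice 1, 2 and 3. Each deposited file holds the whole-number read count of every gene symbol in 1 library, before any normalization. Tools named in the submitters' processing notes are STAR 2.4.2a, HTSeq, cutadapt 1.7.1, FastQC and DESeq2, and the builds named there are GRCm38.p4 and mm10. The HTSeq version and strand setting are not given in the sources used here. How reads in bases shared by genes on opposite strands were counted is therefore not known. The 5 HTSeq summary rows entered neither library sizes nor the fits. Reads in no gene were 45.9% ± 3.05 of all counted rows in positive and 45.7% ± 4.31 in negative libraries, ambiguous reads 1.94% ± 0.0478 and 1.44% ± 0.220, and multiply aligned reads 10.3% ± 1.91 and 10.2% ± 0.548 (SD, n = 3 each).

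From the counts, CPM with TMM factors, log2 fold changes (positive over negative), standard errors, 95% intervals and two-sided p-values were computed with edgeR 4.0.16 (quasi-likelihood, robust, filterByExpr with a count minimum of 10) in R 4.3.3, adjusted by Benjamini-Hochberg over all 13175 genes kept and called under 0.05. Ratios within mice used CPM plus 0.5. Exon lengths and overlaps came from GENCODE M21 on GRCm38, which may differ from the authors' annotation. Promoters came from RefSeq.

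The labels name the same mouse for the libraries of 1 number, so the numbers pair them. Deviations from the group means correlated at 0.263, 0.254 and 0.346 within mice 1, 2 and 3. The main fit left the mouse out, and a fit that took the mouse as replicate block was the alternative. Fold changes, standard errors and intervals are those of the main fit, which does not use the pairing, unless the block is named. Others were RLE factors, library size only, no filter, a stricter filter (1 CPM in all libraries of 1 group and a mean of 5 CPM), DESeq2 1.42.0, limma-voom (limma 3.58.1), leaving out each library or mouse, and leaving out mitochondrially encoded genes. Leaving the transcription factors out of the motile cilium list was added after the data were seen.

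Members and lists were chosen with earlier results of these data known. Any member may be named. Values in each library were set to be given for the member with the most CPM and the largest and smallest fold change in each role. The same was set for up to 3 genes of smallest p in other lists. Ift81, Ift122, Kif3a, Kif3c, Bbs2, Ttc21a, Dynlrb2, Ift88os, Cep290, Lztfl1 and Mks1 were given more values after their values were seen. Rpgr, Ofd1, Rpgrip1 and Invs were named after their values were seen.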

Additional observations from a re-analysis of the deposited data

How the results depend on the processing

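The count of transport genes called was 0 under all 22 alternatives (of 35 kept by the stricter filter, which dropped Kif17 and Bbs10), with the smallest adjusted p at 0.119, for Bbs1 with the replicate block and without mouse 1. Of 812 fold changes of single genes under these alternatives, 746 kept their direction, 66 changed sign and 0 were called. The median log2 fold change of the transport genes moved to 0.34 with library size only, where that of all genes was 0.29, and was between -0.05 and 0.13 when a library or mouse was left out. Over all genes, 82 were called (6 higher, 76 lower). The replicate block called 415 (179 higher, 236 lower), no expression filter 413 (167 higher), DESeq2 245 (56 higher), DESeq2 with the block 464 (201 higher) and limma-voom with the block 544 (273 higher), and library size only called 76 (22 higher). Leaving out 1 library or mouse gave 22 to 113 without the block, and 59 to 633 with it (633 without mouse 1, 380 without mouse 2, 59 without mouse 3). Other pathway genes called were 0, but 1 with limma-voom and the block (Arl2bp) and 0 to 2 when a mouse was left out, with 2 under the block without mouse 1 (Mok, Unc119b) and 2 without mouse 2 (Dynll1, Dynlrb2). Motile cilium genes called were 0, but 3 with the block, 3 with no filter and 4 with DESeq2 and the block, all higher, 9 with limma-voom and the block (6 higher, and Ccdc39, Cfap43 and Dnah12 lower), and 0 to 6 when a library or mouse was left out. The cause of these moves was not tested. Without length correction, Dync2h1 ranked above Traf3ip1. Precision was limited by 3 libraries a group and by depth for Bbs10 and Kif17, at 1.90 to 6.51 CPM; counting error alone is covered by the floor of 3 counts.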
